A study of Mus musculus with 22 samples.

Results

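Interferon-induced genes were followed after oxycodone self-administration, in striatal tissue of male adult mice of the C57BL/6J strain. The 35 genes are a named list of interferon regulatory factors, STAT proteins, interferon GTPases, antiviral effectors and feedback inhibitors, and all 35 were found among the 23119 genes of the count table. The mice given oxycodone, an opioid analgesic, took 0.25 mg/kg per infusion in sessions of 4 h a day over 14 days, and the yoked controls received saline infusions on the same schedule. Dorsal striatum gave 5 oxycodone and 5 saline libraries, and ventral striatum gave 6 and 6, each made from total RNA of bulk tissue with ribosomal RNA removed. In the dorsal striatum, oxycodone replicates 2 and 3 carry the same title number, as do saline replicates 2 and 3, and the labels do not say whether each library is a separate mouse. P-values therefore measure the spread between these libraries, which may in part be technical.

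Interferons are secreted proteins that cells release when they sense viral or other foreign nucleic acid. Type I interferons signal through the kinases JAK1 and TYK2 to a complex that contains STAT2 and IRF9 and binds the interferon-stimulated response element in promoters, whereas the response to interferon gamma runs through the gamma-activated site. In the brain the response is known from microglia, endothelium, astrocytes and neurons.

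Promoter sequences are shown for 9 members so that the matches to both response elements can be read beside the values that follow. RefSeq promoters on GRCm38.p6, running from 250 bases before to 50 bases after the start of transcription, were found for 31 of the 35 members. The interferon-stimulated response element was searched as GAAA, 2 bases of any kind and GAAA again, and the gamma-activated site as TTCNNNGAA, on both strands, with overlapping matches kept. Each line gives the 120 bases before the start, 5′ to 3′ on the strand of the gene, and capitals mark the matches. The first 4 members, Irf1, Tgtp1, Irgm2 and Ube2l6, passed the test in the dorsal striatum, the next 3 are further GTPases, and Isg15 and Ifit1 are classical type I targets that did not pass.
Irf1, chr11:53769894-53770013, plus strand: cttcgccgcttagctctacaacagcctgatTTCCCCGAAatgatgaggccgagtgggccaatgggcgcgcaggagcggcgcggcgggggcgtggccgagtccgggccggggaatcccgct
Tgtp1, chr11:48992247-48992366, minus strand: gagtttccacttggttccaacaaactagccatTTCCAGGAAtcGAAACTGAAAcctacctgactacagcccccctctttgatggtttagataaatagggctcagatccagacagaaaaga
Irgm2, chr11:58214857-58214976, plus strand: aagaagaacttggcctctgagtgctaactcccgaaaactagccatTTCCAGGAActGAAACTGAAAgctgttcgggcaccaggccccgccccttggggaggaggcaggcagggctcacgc
Ube2l6, chr2:84798708-84798827, plus strand: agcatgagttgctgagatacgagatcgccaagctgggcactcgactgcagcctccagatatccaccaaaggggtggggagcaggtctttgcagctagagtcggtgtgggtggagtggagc
Igtp, chr11:58199436-58199555, plus strand: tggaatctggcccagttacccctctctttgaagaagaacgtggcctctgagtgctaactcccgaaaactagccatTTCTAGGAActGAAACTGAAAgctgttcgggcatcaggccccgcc
Irgm1, chr11:48871421-48871540, minus strand: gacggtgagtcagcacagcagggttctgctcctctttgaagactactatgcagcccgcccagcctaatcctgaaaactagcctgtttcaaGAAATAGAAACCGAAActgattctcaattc
Gbp7, chr3:142530216-142530335, plus strand: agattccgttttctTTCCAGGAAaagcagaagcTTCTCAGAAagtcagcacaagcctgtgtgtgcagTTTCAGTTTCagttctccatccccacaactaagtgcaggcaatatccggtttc
Isg15, chr4:156200819-156200938, minus strand: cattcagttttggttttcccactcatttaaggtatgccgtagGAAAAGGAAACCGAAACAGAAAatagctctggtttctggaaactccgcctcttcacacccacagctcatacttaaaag
Ifit1, chr19:34640769-34640888, plus strand: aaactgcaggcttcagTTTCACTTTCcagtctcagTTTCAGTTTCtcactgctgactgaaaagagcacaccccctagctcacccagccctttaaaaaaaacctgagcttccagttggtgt

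In Tgtp1, Irgm2 and Igtp the gamma-activated site stood just upstream of the interferon-stimulated response element, starting 88, 75 and 45 bases before the start of transcription, with the second element starting at 77, 64 and 34 bases. Irf1 held the gamma-activated site without a match to the other element, starting 90 bases before the start. Irf1 has 2 RefSeq promoters, of which the one with more matches is printed, and its other promoter held no match to either element. Isg15 held 3 overlapping matches to the interferon-stimulated response element and Ifit1 held 2, with no gamma-activated site in either promoter. Ube2l6 held no match to these letters in its window. A gene was counted if any of its promoters held a match. Across the list, the interferon-stimulated response element was found for 19 of 31 members, against 3.99% of 27025 genes with promoters of the same length. The gamma-activated site was found for 12 of 31, against 9.55%. Both stood in 1 promoter for 7 of 31 members, against 0.540% of all genes. Of the 7 GTPases with a promoter sequence, 7 held the interferon-stimulated response element and 4 held both. A match describes letters in the window and is not evidence of binding.

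**Figure D1:**
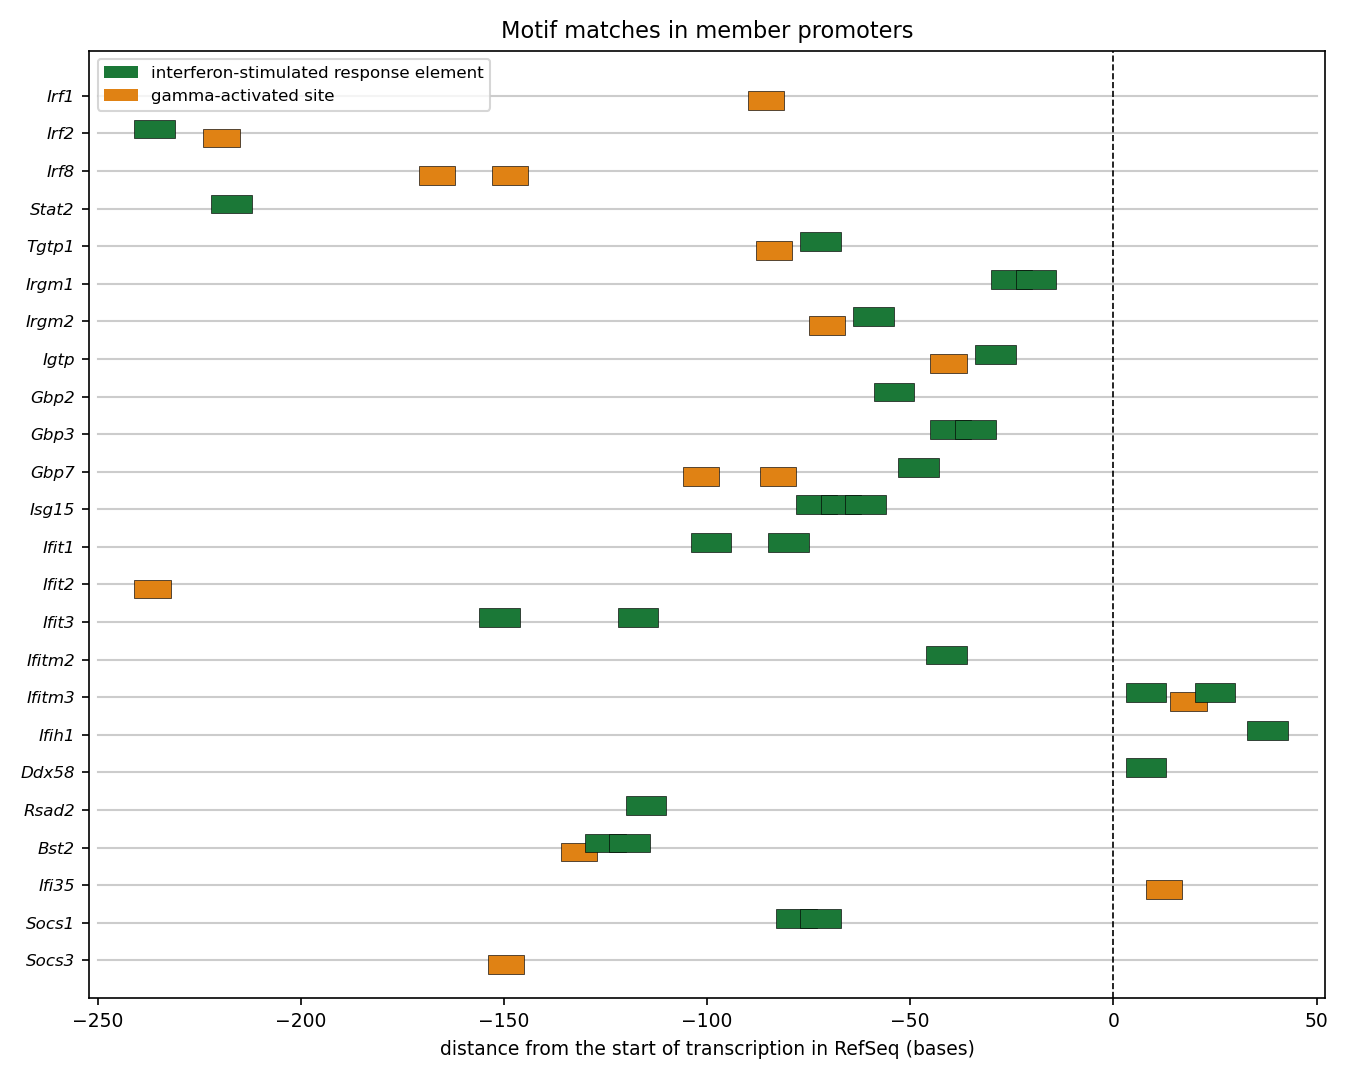
Matches to the interferon-stimulated response element (green) and the gamma-activated site (orange) in the promoters of the members that held at least 1 match, by distance in bases from the RefSeq start of transcription. Tgtp1, Irgm2 and Igtp share the arrangement of an orange box directly left of a green one, while Isg15 and Ifit1 hold green boxes without an orange one.

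The dorsal libraries held 13797075 to 17836414 counts after oxycodone and 11314079 to 21921963 after saline, and the ventral libraries 8408829 to 10007992 after oxycodone and 9172185 to 11000345 after saline. Levels are in CPM, counts divided by library size, with library sizes scaled by TMM factors, which align the bulk of genes between libraries, once over all 22 libraries. Markers of striatal projection neurons were detected in every library, but their summed level was 263 CPM in ventral saline replicate 6 against a median of 3112 CPM over the 6 ventral saline libraries. An earlier analysis of these data set that library and ventral oxycodone replicate 6 apart by regional markers, and the ventral member counts are given with and without them.

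The dorsal comparison asked which of these genes differ after oxycodone. Of the 35 members, 4 passed the edgeR quasi-likelihood test at an adjusted p under 0.05, all higher after oxycodone, against 0.206% of the 14595 genes tested. They were Irf1, a transcription factor induced by interferon gamma, the GTPases Tgtp1 and Irgm2, which act against intracellular pathogens, and Ube2l6, the enzyme that passes ISG15 on to its targets. Of the 35 members, 34 had a positive log2 change, against 47.9% of all genes, and the median change was 0.77 against -0.01 for all genes. At an unadjusted p under 0.05, 20 members were higher and 0 lower, against 3.25% of all genes higher and 2.39% lower. For 7 members (Irf1, Stat3, Irgm1, Irgm2, Iigp1, Ifitm2 and Ifitm3), every oxycodone library was above every saline library, against 0.843% of genes tested. The gene lists were chosen with earlier results of these data known, and their genes were measured in the same libraries. Shares set against all genes, here and below, therefore describe the lists and are not an independent test of them. In bulk tissue, more cells of a type and more RNA per cell cannot be told apart.

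Irf1 (ENSMUSG00000018899, GRCm38 chromosome 11, 53770014 to 53778374) had 25.7, 30.0, 10.8, 25.0 and 54.0 CPM in the oxycodone libraries, against 7.36, 8.53, 9.34, 8.75 and 9.02 CPM in the saline libraries. The saline values lay close together, and the groups did not overlap, although oxycodone replicate 3 came close to the highest saline library. Irf1 averaged 29.1 ± 15.7 CPM after oxycodone and 8.60 ± 0.755 CPM after saline (SD, n = 5 each). On the log2 scale the change was 1.75 (SE 0.29), and the adjusted p by edgeR was 0.0162.

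Tgtp1 (ENSMUSG00000078922, chromosome 11, 48985327 to 48994172) had 33.6, 31.4, 10.4, 17.3 and 42.6 CPM in the oxycodone libraries, against 10.8, 5.45, 7.76, 6.38 and 7.76 CPM in the saline libraries. Oxycodone replicate 3 fell just under saline replicate 1, and the other 4 oxycodone libraries were above all saline libraries. Its log2 change was 1.83 (SE 0.31), for which edgeR gave an adjusted p of 0.0162. Tgtp1 lies beside its near-identical copy Tgtp2, so its counts depend on how reads shared by both were assigned.

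Irgm2 (ENSMUSG00000069874, chromosome 11, 58199618 to 58222782) had 18.6, 18.1, 10.1, 11.5 and 30.7 CPM in the oxycodone libraries, against 8.34, 8.88, 4.60, 6.19 and 5.47 CPM in the saline libraries. The groups did not overlap, and replicate 5 was the highest oxycodone library. Its log2 change was 1.42 (SE 0.27), for which edgeR gave an adjusted p of 0.0162. Its annotated span overlaps that of Igtp on the same strand, so reads in the overlap are uncertain for both genes.

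Ube2l6 (ENSMUSG00000027078, chromosome 2, 84798828 to 84810335) had 8.44, 14.1, 10.1, 2.94 and 21.9 CPM in the oxycodone libraries, against 4.17, 3.43, 1.73, 2.96 and 2.94 CPM in the saline libraries. Oxycodone replicate 4 was within the saline range, and the other 4 oxycodone libraries were above it. Its log2 change was 1.92 (SE 0.38), for which edgeR gave an adjusted p of 0.0209.

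**Figure D2:**
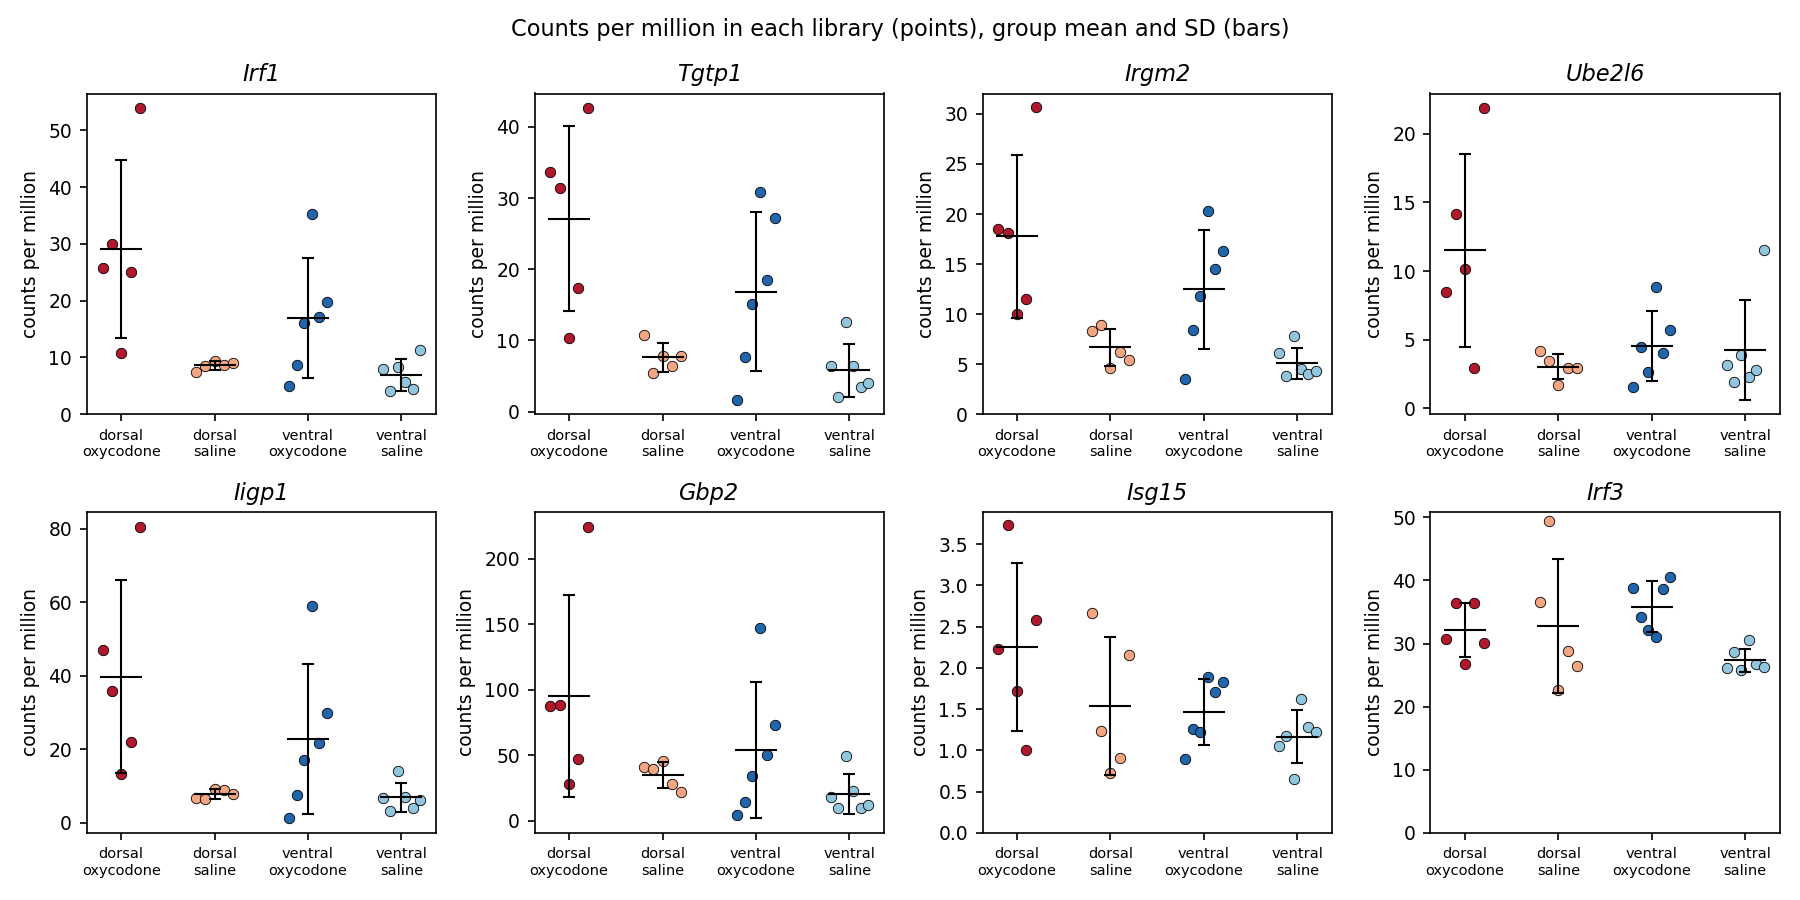
CPM of 8 members in each library, with oxycodone left of saline within the dorsal and then the ventral striatum, where points are libraries and bars are the group mean and SD. Irf1, Irgm2 and Iigp1 do not overlap between the dorsal groups, and Irf3 does not overlap between the ventral groups. For most of the genes shown the highest point in a region is dorsal oxycodone replicate 5 or ventral oxycodone replicate 4.

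These 4 calls depended on the tool and on which libraries entered the fit. The full comparison called 30 genes in all. DESeq2 called these 4 with Ifitm2, Ifitm3, Iigp1 and Irgm1, among 85 genes called. Limma-voom called Irgm2 and Tgtp1 with Iigp1 and Irgm1, but neither Irf1 nor Ube2l6. With libraries of the same title number and treatment summed, 5 members were called by edgeR, Gbp7, Irf1, Irgm1, Irgm2 and Tgtp1, without Ube2l6. Leaving out oxycodone replicate 2, or saline replicate 3, 4 or 5, left 0 members called, among 9, 11, 17 and 1 genes called in that order. Leaving out saline replicate 2 left 1 member among 16 genes called, and leaving out oxycodone replicate 3 gave 10 among 63. Over the 10 single-library omissions, Tgtp1 and Irgm2 passed 5 times, and Irf1 and Ube2l6 passed 4 times. Without oxycodone replicate 5, 4 members were called among 14 genes called, and of the 4, Irf1 and Tgtp1 were also called in the full comparison. In that fit 30 of 35 members were positive and the median log2 change was 0.46.

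The 8 interferon GTPases had the highest median of the role groups: their dorsal log2 changes ran from 0.92 to 2.34, with a median of 1.52, and 8 of 8 had an unadjusted p under 0.05, of which 2 passed after adjustment by edgeR, against 4 by DESeq2 and 4 by limma-voom, which both added Iigp1 and Irgm1. Irgm1, which governs the placing of the other immunity-related GTPases on membranes, had 41.2, 37.3, 20.9, 28.6 and 76.2 CPM in the oxycodone libraries, against 14.8, 10.8, 18.1, 12.4 and 14.6 CPM in the saline libraries. The groups did not overlap, and the log2 change of 1.53 (SE 0.29) had an edgeR adjusted p of 0.0644. Iigp1, which attacks the vacuole of intracellular parasites, had the largest log2 change of the list, 2.34 (SE 0.46), at an adjusted p of 0.16 by edgeR. Its levels averaged 39.7 ± 26.3 CPM after oxycodone and 7.82 ± 1.29 CPM after saline (SD, n = 5 each). Igtp had a log2 change of 1.62 (SE 0.46), and the guanylate-binding proteins Gbp3, Gbp2 and Gbp7 had 1.51, 1.44 and 0.92. In each of these 8 genes oxycodone replicate 3 was the lowest and replicate 5 the highest oxycodone library.

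Among the 9 transcription factors, 8 had a positive change, 3 had an unadjusted p under 0.05 and 1, Irf1, passed. Stat3, which mainly carries cytokine signals of the interleukin-6 family, had 94.1, 98.5, 85.8, 86.0 and 125 CPM in the oxycodone libraries, against 85.5, 70.8, 78.6, 82.1 and 69.9 CPM in the saline libraries. The groups were separated by a narrow margin, and the log2 change of 0.34 (SE 0.11) had an edgeR adjusted p of 0.372. Irf9, the DNA-binding subunit of the type I complex, had 13.0, 19.7, 14.0, 11.8 and 26.7 CPM in the oxycodone libraries, against 7.10, 10.9, 8.55, 14.2 and 12.3 CPM in the saline libraries, with overlap and an adjusted p of 0.501. Irf3, which switches on interferon genes and needs no induction itself, was the member with a negative change, -0.02 (SE 0.17). Irf7, which amplifies type I interferon production, had 0.65 (SE 0.35), Irf2 0.31 (SE 0.24), Stat2 0.27 (SE 0.15), Irf8 0.21 (SE 0.25) and Irf5 0.16 (SE 0.20), and the groups of these 5 genes overlapped.

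In the ISG15 pathway, whose product ISG15 is a ubiquitin-like tag, Ube2l6 was the 1 of 3 genes that passed. Isg15 had 2.22, 3.73, 1.72, 1.00 and 2.58 CPM in the oxycodone libraries, against 2.66, 1.23, 0.719, 0.911 and 2.15 CPM in the saline libraries. Usp18, which removes ISG15 and restrains the type I receptor, had 3.78, 3.73, 4.24, 3.30 and 7.17 CPM in the oxycodone libraries, against 6.21, 3.25, 1.65, 3.05 and 2.62 CPM in the saline libraries. Both overlapped broadly, with log2 changes of 0.56 (SE 0.58) and 0.41 (SE 0.41) and edgeR adjusted p-values of 0.998 each.

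Of the 13 antiviral effectors and RNA sensors, 13 had a positive change, with a median of 0.77, 7 had an unadjusted p under 0.05 and 0 passed the edgeR test after adjustment, against 2 by DESeq2, which called Ifitm2 and Ifitm3, and 0 by limma-voom. Ifitm3, which blocks the entry of enveloped viruses, had 15.2, 13.4, 15.9, 15.9 and 36.3 CPM in the oxycodone libraries, against 8.61, 10.3, 5.75, 11.5 and 8.18 CPM in the saline libraries. Its groups did not overlap, and the log2 change of 1.12 (SE 0.26) had an edgeR adjusted p of 0.0621. Its relative Ifitm2 had 13.0, 13.3, 9.48, 11.1 and 11.1 CPM in the oxycodone libraries, against 8.16, 4.39, 6.40, 7.38 and 5.65 CPM in the saline libraries.

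In Ifitm2 every oxycodone library was above every saline library, and edgeR gave an adjusted p of 0.271 for its log2 change of 0.86 (SE 0.25). Parp14, an ADP-ribosyltransferase, had 29.5, 18.0, 16.2, 22.9 and 56.1 CPM in the oxycodone libraries, against 8.61, 7.03, 16.7, 14.5 and 11.1 CPM in the saline libraries, and edgeR gave an adjusted p of 0.377 for the log2 change of 1.29 (SE 0.35). Oxycodone replicate 3 was just under the highest saline library for Parp14, and the other 4 oxycodone libraries were above it. Among classical type I effectors, Ifit1 had a log2 change of 0.93 (SE 0.34), Oasl2 0.71 (SE 0.43), Ifit3 0.28 (SE 0.30), Rsad2 0.22 (SE 0.48) and the RNA sensor Ddx58 0.10 (SE 0.27), with edgeR adjusted p-values from 0.539 to 0.998. The dorsal groups overlapped in each of the other effectors, with log2 changes of 0.80 (SE 0.34) for Ifit2, 0.77 (SE 0.33) for the RNA sensor Ifih1, 0.77 (SE 0.36) for Ifi35, 1.04 (SE 0.53) for Bst2, which tethers budding virions, and 0.47 (SE 0.41) for Rtp4.

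The feedback inhibitors restrain JAK kinases. Socs3 had 1.44, 5.17, 1.58, 4.23 and 7.60 CPM in the oxycodone libraries, against 0.710, 1.93, 1.51, 1.18 and 2.48 CPM in the saline libraries, with 3 oxycodone libraries above the saline range. Its log2 change was 1.34 (SE 0.53) with an edgeR adjusted p of 0.667. Socs1 had 0 to 38 counts in the oxycodone libraries and 4 to 27 in the saline libraries, with 0 counts in oxycodone replicate 3, which allows up to 0.215 CPM by counting error alone, and 2.72 CPM in replicate 5.

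**Figure D3:**
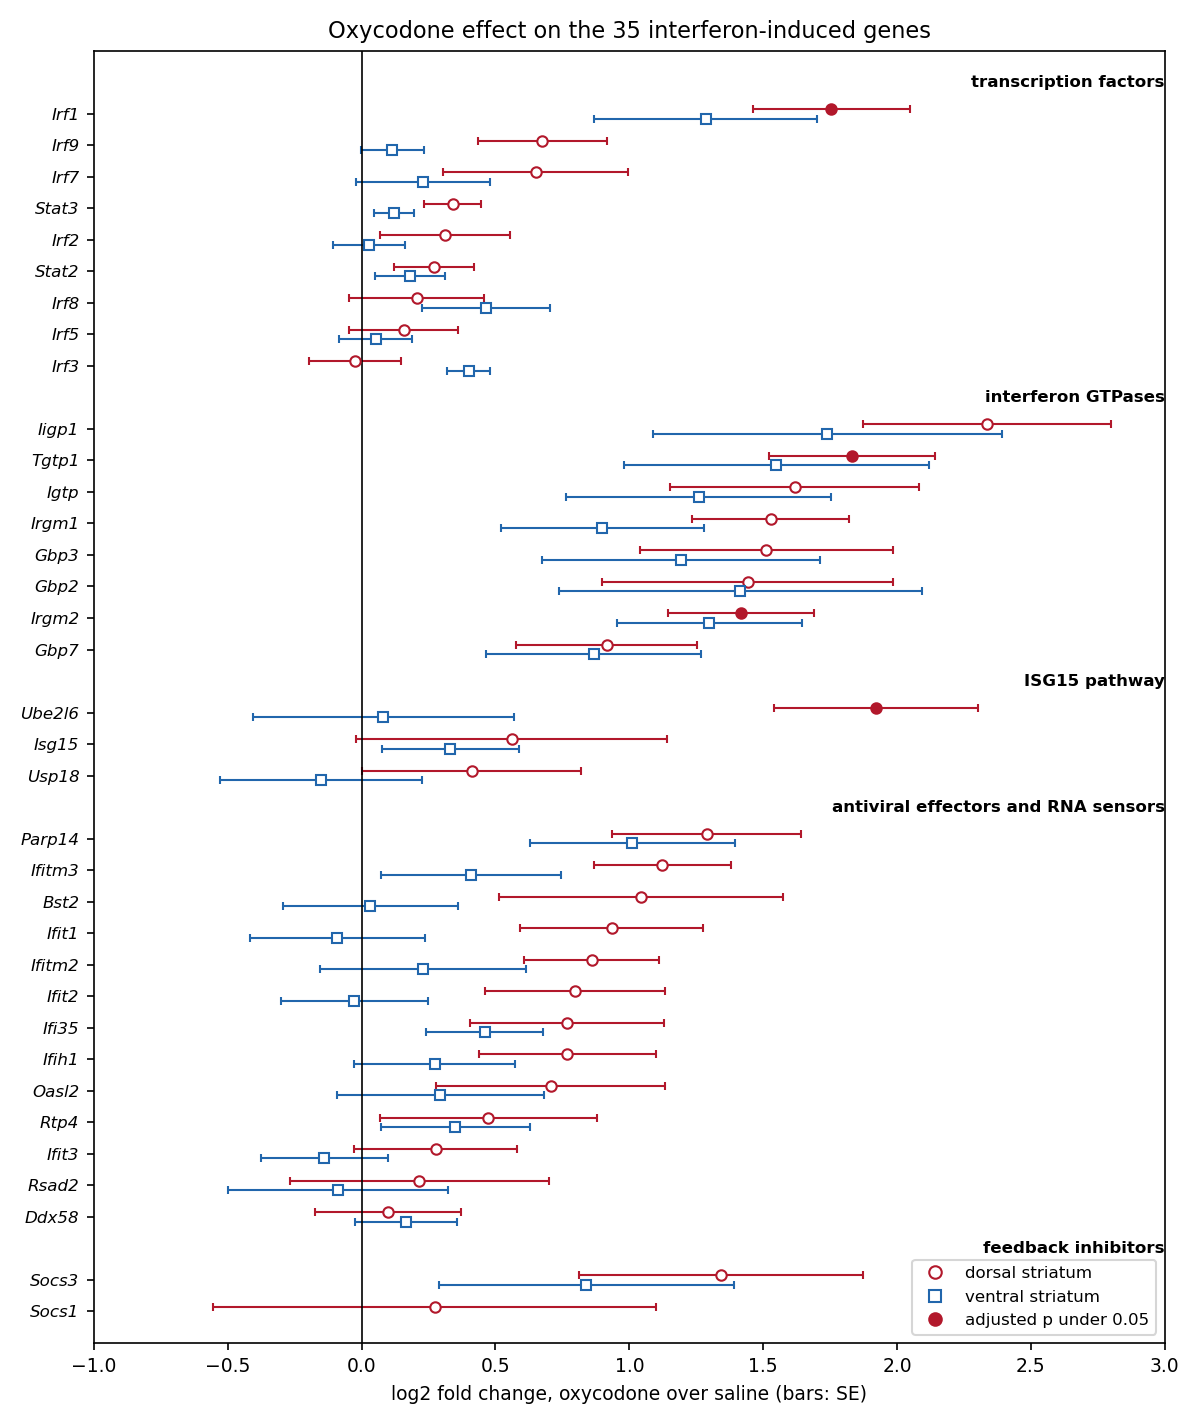
Log2 fold change of oxycodone over saline with its SE for the members in dorsal (red) and ventral (blue) striatum, by role, with filled symbols for an adjusted p under 0.05. The GTPases lie to the right in both regions, while the effectors lie right of 0 in the dorsal striatum and around 0 to 1 in the ventral striatum.

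Per kilobase of exon, the dorsal saline libraries ranked Gbp2 first at 14.0 CPM per kb, then Ifitm3 at 13.1, Ifitm2 at 9.77, Irf3 at 9.52 and Stat3 at 8.12, and Socs1 last at 0.325. In the dorsal oxycodone libraries Gbp2 stood at 37.8 CPM per kb, Ifitm3 at 28.6 and Igtp at 24.1.

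Dorsal oxycodone replicate 5 was the highest of the 10 dorsal libraries for 29 of 35 members, against 11.4% of all genes tested, and the lowest for 0. Oxycodone replicate 3 was the lowest oxycodone library for 20 of 35, against 17.9% of all genes. The spread among oxycodone libraries exceeded that among saline libraries for 27 of 35 members, with a median coefficient of variation of 49.3% after oxycodone and 27.7% after saline. Spread was not compared over all genes, so this count is not shown to be particular to the members.

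Markers of blood cells were also highest in the library with the highest member levels. The summed level of the 5 red cell markers ran from 593 to 1780 CPM in dorsal oxycodone libraries, highest in replicate 5, and from 410 to 629 CPM in saline libraries. Of the 15 white blood cell markers, the sum ran from 78.6 to 126 CPM after oxycodone, again highest in replicate 5, and from 65.6 to 87.5 CPM after saline. Of 6 tested, 2 passed, both higher, against 0.206% of all genes, and 4 were positive, with a lowest log2 change of -1.31. Cd4, a T cell and macrophage gene and the most abundant of the list, averaged 49.6 ± 2.73 CPM after oxycodone and 53.9 ± 8.01 CPM after saline (SD, n = 5 each), and the monocyte receptor gene Ccr2 averaged 0.674 ± 0.850 CPM after oxycodone and 1.67 ± 0.868 CPM after saline. Itgal, an integrin of leukocytes, averaged 6.68 ± 2.31 CPM after oxycodone and 1.49 ± 0.726 CPM after saline (SD, n = 5 each), whereas the T cell gene Cd3e and the B cell gene Ms4a1 were at 0 counts in all 10 dorsal libraries. The 10 microglia markers summed to 536 to 647 CPM after oxycodone and 519 to 536 CPM after saline, and the 10 endothelium markers to 467 to 557 CPM after oxycodone and 408 to 470 CPM after saline. With the haemoglobin level as a covariate, 0 members were called by edgeR, 25 of 35 stayed positive and the median log2 change was 0.25. The 5 red cell markers, which include the haemoglobin genes, all had a positive log2 change, against 47.9% of all genes, with a median of 0.83. Of these 5, 1 passed by edgeR, against 0.206% of all genes. The covariate thus differed between treatments, and the 2 cannot be fully told apart in this fit. Between 3 and 8 of the 15 white blood cell markers were at 0 in each oxycodone library, and between 4 and 7 in each saline library. The part of these cells in the result was not tested.

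**Figure D4:**
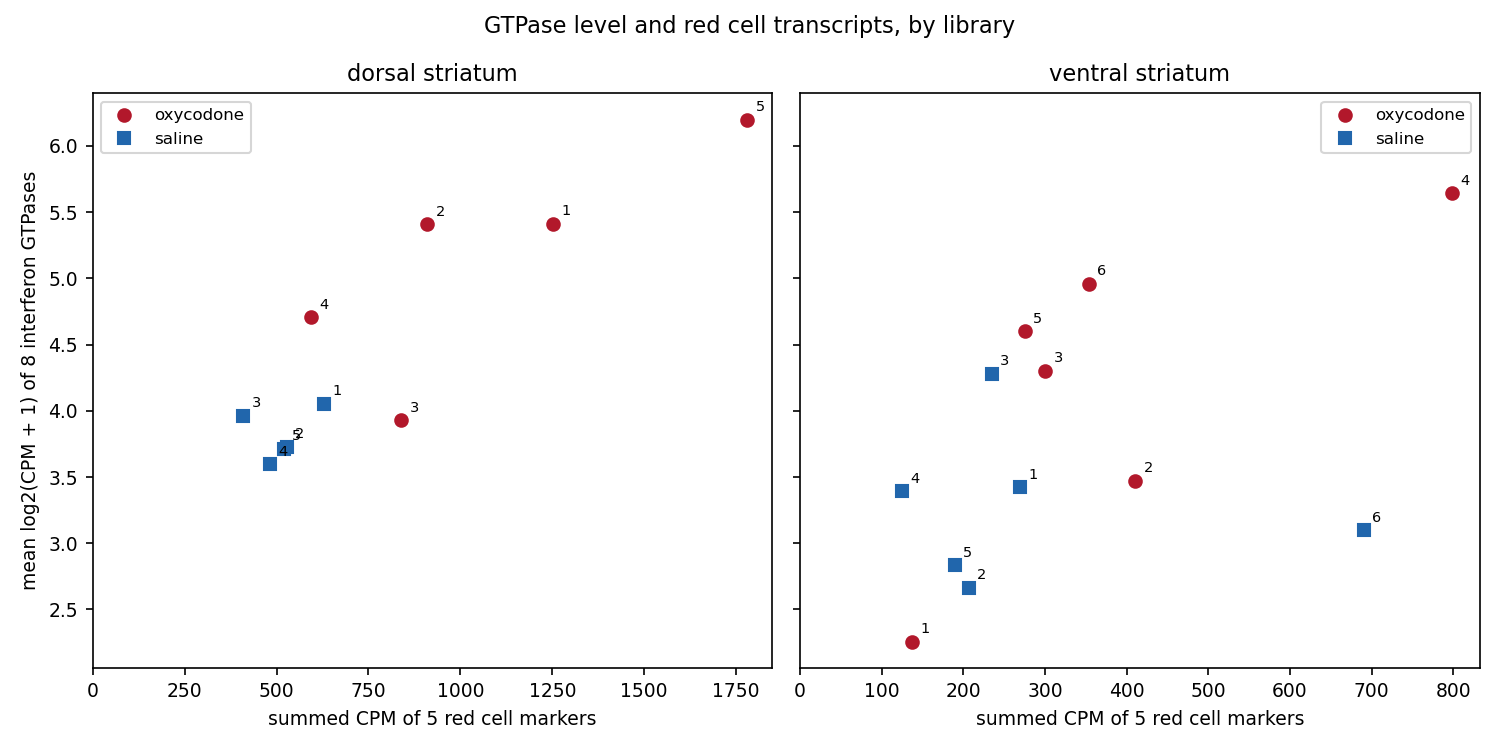
Mean log2(CPM + 1) of the 8 interferon GTPases against the summed CPM of the 5 red cell markers in each library for dorsal (left) and ventral (right) striatum. In the dorsal striatum replicate 5 after oxycodone is highest on both axes, as is replicate 4 after oxycodone in the ventral striatum. Ventral saline replicate 6 also has a high red cell level, 690 CPM, with a GTPase level of 3.10.

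In the ventral striatum the same question gave 0 of 34 tested members at an adjusted p under 0.05 by edgeR, against 0% of 14116 genes, and Socs1 was too low to be tested. At an unadjusted p under 0.05, 9 members were higher and 0 lower, against 4.94% of genes higher and 4.19% lower. DESeq2 called 1 member, Irf3, and limma-voom 0. Of the 34, 29 had a positive change, against 49.1% of all genes, with a median of 0.31.

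The 8 GTPases had a ventral median log2 change of 1.28, against 0.18 for the transcription factors and 0.23 for the effectors, 8 of 8 positive and 6 with an unadjusted p under 0.05. Irgm2 ranged from 3.57 to 20.3 CPM with a median of 13.2 in the oxycodone libraries, against 3.83 to 7.79 CPM with a median of 4.43 in the saline libraries. Of the 6 oxycodone libraries, 5 were above every saline library, and replicate 1 was below all of them. Its log2 change was 1.30 (SE 0.35), for which edgeR gave an adjusted p of 0.394.

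Irf1 ranged from 4.96 to 35.3 CPM with a median of 16.5 in the ventral oxycodone libraries, against 4.04 to 11.3 CPM with a median of 6.84 in the saline libraries, and 4 of 6 oxycodone libraries were above the saline range. Its log2 change was 1.29 (SE 0.42) with an edgeR adjusted p of 0.449. Tgtp1 ranged from 1.68 to 30.9 CPM after oxycodone and from 2.13 to 12.6 CPM after saline, and edgeR gave an adjusted p of 0.487 for the log2 change of 1.55 (SE 0.57). Ube2l6, called in the dorsal striatum, ranged from 1.59 to 8.85 CPM after oxycodone and from 1.91 to 11.5 CPM after saline, with a log2 change of 0.08 (SE 0.49).

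Irf3 had the smallest ventral p of the list. It ranged from 31.0 to 40.6 CPM with a median of 36.4 in the oxycodone libraries, against 25.9 to 30.5 CPM with a median of 26.5 in the saline libraries. It was the 1 member whose ventral groups did not overlap, against 0.312% of genes tested. The log2 change was 0.40 (SE 0.08), with an edgeR adjusted p of 0.262. In the other members named above, ventral oxycodone and saline ranges overlapped.

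Irgm1 ranged from 9.51 to 52.8 CPM with a median of 22.2 in the ventral oxycodone libraries, against 8.40 to 22.5 CPM with a median of 11.7 in the saline libraries, and its log2 change was 0.90 (SE 0.38). Parp14 ranged from 10.3 to 53.9 CPM with a median of 21.4 after oxycodone and from 6.17 to 19.6 CPM with a median of 12.1 after saline, with 4 of 6 oxycodone libraries above the saline range and a log2 change of 1.01 (SE 0.38). Iigp1 ranged from 1.19 to 59.1 CPM with a median of 19.3 after oxycodone and from 3.08 to 14.1 CPM with a median of 6.47 after saline, and its log2 change was 1.74 (SE 0.65). In all 3 genes the oxycodone median was above the saline median while the ranges overlapped at the low end. Ifitm3 ranged from 6.64 to 23.8 CPM after oxycodone and from 5.64 to 16.7 CPM after saline, with a log2 change of 0.41 (SE 0.34). Ifitm2 ranged from 7.63 to 20.5 CPM after oxycodone and from 5.10 to 26.6 CPM after saline, with 0.23 (SE 0.38). Socs3 ranged from 1.29 to 5.78 CPM after oxycodone and from 0.534 to 4.34 CPM after saline, with 0.84 (SE 0.55). Overlap was broad in these 3 genes, whose highest saline library lay above most oxycodone libraries. Stat3 and Irf9 had ventral log2 changes of 0.12 (SE 0.08) and 0.12 (SE 0.12), Isg15 had 0.33 (SE 0.26) and Usp18 had -0.15 (SE 0.38). Of the members with a negative ventral change, Ifit3 had the lowest effector value at -0.14 (SE 0.24), followed by Ifit1 at -0.09 (SE 0.33), Rsad2 at -0.09 (SE 0.41) and Ifit2 at -0.03 (SE 0.27).

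Ventral oxycodone replicate 4 was the highest of its group for 28 of 35 members, against 16.2% of all genes, and for 8 of 8 GTPases. Replicate 1 was the lowest for 25 of 35, against 21.2%. Among saline libraries, replicate 6 was the highest for 23 of 35 members, against 32.8% of all genes, but for 0 of 8 GTPases, for which replicate 3 was the highest 8 times. Ventral oxycodone replicate 4 and dorsal oxycodone replicate 5 both carry title number 7, and the labels do not say whether a number marks a mouse. The summed red cell level was 137 to 799 CPM in ventral oxycodone libraries, highest in replicate 4, and 125 to 690 CPM in saline libraries. White blood cell markers summed to 28.7 to 77.9 CPM after oxycodone and 15.9 to 52.1 CPM after saline. The white blood cell sum was also highest in replicate 4, and 5 of 5 tested markers of that list were positive. In all 9 marker lists 0 genes passed by edgeR, while 10 of 10 striatal projection neuron markers were positive with a median log2 change of 0.72, as were 8 of 8 oligodendrocyte markers with 0.46, and 0 of 8 markers of glutamatergic neurons were positive, with a median of -0.52. Choroid plexus and ependyma markers summed to 1795 CPM in oxycodone replicate 6, with 33.7 to 69.1 CPM in the other oxycodone libraries and 14.3 to 47.9 CPM in saline libraries. With the haemoglobin level as a covariate, 0 of 34 members passed by edgeR, 23 were positive and the median log2 change was 0.10. The 5 red cell markers all had a positive ventral log2 change, against 49.1% of all genes, with a median of 0.40. The part of these other cells in the result was not tested. Without both sixth libraries, 0 of 34 members were called by edgeR, 31 were positive and the median log2 change was 0.38. Without oxycodone replicate 4 alone, 24 were positive and the median was 0.15, and without saline replicate 6 alone, 34 were positive and the median was 0.48.

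**Figure D5:**
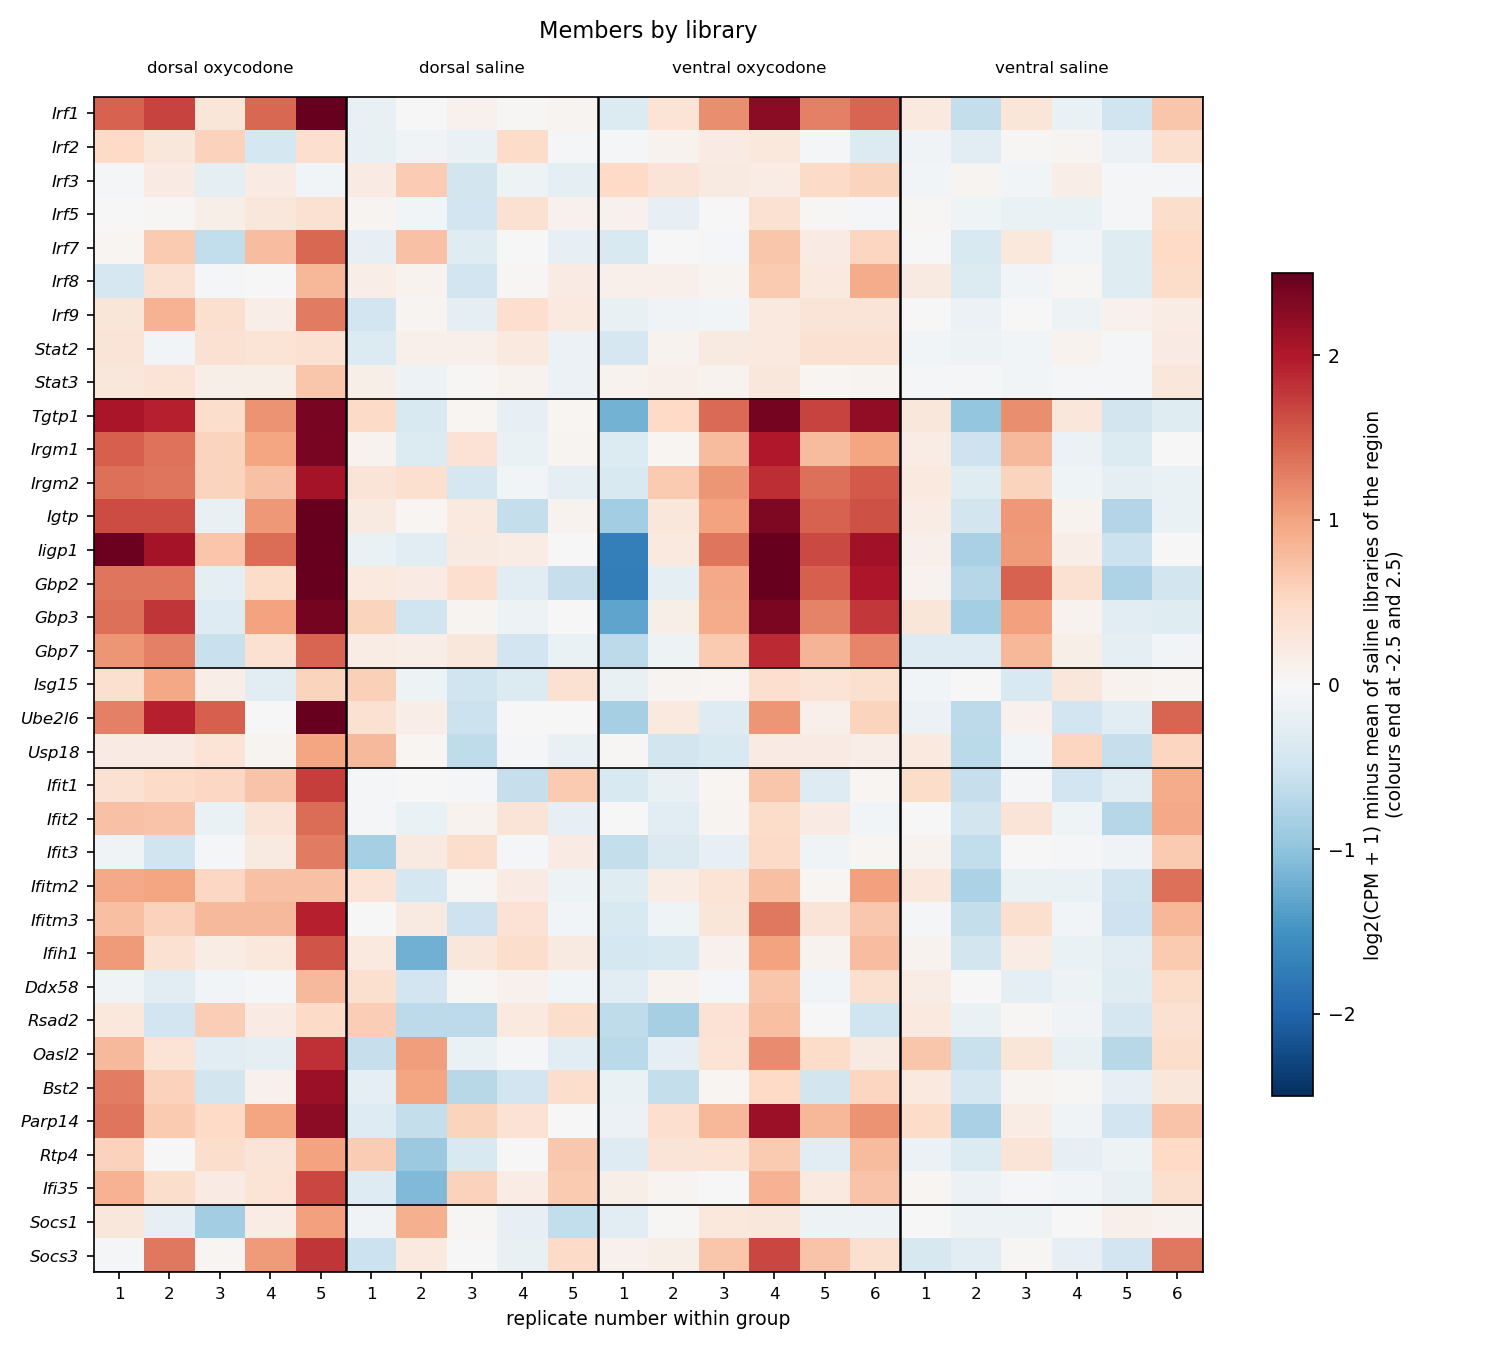
Log2(CPM + 1) of each member in each library minus the mean of the saline libraries of the same region, with oxycodone left of saline and members in role order. The darkest columns are dorsal oxycodone replicate 5 and ventral oxycodone replicate 4, and the GTPase rows are lowest among the oxycodone columns in dorsal replicate 3 and ventral replicate 1.

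Whether the oxycodone effect differed between regions was tested as dorsal minus ventral effect in 1 fit of all 22 libraries. By edgeR 0 of 34 members were called, against 0% of 14938 genes, and DESeq2 and limma-voom also called 0. At an unadjusted p under 0.05, 3 members had a larger dorsal effect and 0 a larger ventral one, against 2.02% and 2.49% of genes. They were Ube2l6 with a difference of 1.84 (SE 0.68), Ifit1 with 1.03 (SE 0.49) and Irf9 with 0.57 (SE 0.27), each with an edgeR adjusted p of 0.981. For the GTPases the differences ran from 0.04 to 0.64. Of the 34 members, 31 had a positive difference, against 51.2% of genes, with a median of 0.35, and limma-voom gave 25 with a median of 0.15. Without dorsal oxycodone replicate 5 the count was 21 and the median 0.10, without ventral oxycodone replicate 4 they were 32 and 0.64, and without dorsal oxycodone replicate 3 they were 32 and 0.52. Without both sixth ventral libraries they were 29 and 0.27, and without ventral saline replicate 6 alone 28 and 0.23.

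Without drug, dorsal and ventral saline libraries differed for 7 of 34 members by edgeR, against 45.8% of 14433 genes, a smaller share than over all genes. Of the 7, 4 were higher in the dorsal striatum, against 23.6% of genes, and 3 were lower, against 22.3%. Irf8, a factor of myeloid cells, averaged 10.1 ± 1.87 CPM in dorsal and 3.33 ± 0.943 CPM in ventral saline libraries (SD, n = 5 and 6), for which the log2 change was 1.59 (SE 0.23) at an adjusted p of 7.5e-05 by edgeR. Bst2 was 1.11 (SE 0.40) higher on the log2 scale in the dorsal striatum, Igtp 0.93 (SE 0.30) and Gbp7 0.67 (SE 0.24). Ifit2 was lower in the dorsal striatum, at -1.17 (SE 0.30), as were Irf2 at -0.89 (SE 0.17) and Irf9 at -0.53 (SE 0.18). Irf8, Irf2 and Ifit2 passed under all 11 single-library omissions, Igtp under 10, Irf9 under 9, and Gbp7 and Bst2 under 5. Without ventral saline replicate 6, the same 7 and Stat3 passed. A sequencing lane is given for the ventral libraries only, so a difference in sequencing between the regions cannot be told apart from region.

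Other genes of the pathway were taken from a list of 110, of which 103 were in the table and 77 were tested in the dorsal striatum. Of these, 1 passed by edgeR, against 0.206% of all genes, and 64 were positive, against 47.9%, with a median log2 change of 0.30. At an unadjusted p under 0.05, 25 were higher and 0 lower, against 3.25% and 2.39% of all genes. Gbp9, another guanylate-binding protein, had 19.8, 20.4, 10.5, 12.6 and 30.2 CPM in the oxycodone libraries, against 5.06, 10.6, 8.55, 6.65 and 8.13 CPM in the saline libraries. The groups overlapped by 1 pair of libraries, and the log2 change was 1.26 (SE 0.26) with an adjusted p of 0.0246, and Gbp9 passed under 3 of the 10 single-library omissions. Its annotated span overlaps those of Gbp4 and Gbp8 on the same strand, so its counts are uncertain in the overlap. Dtx3l, the ubiquitin ligase partner of PARP9, had a value of 1.57 on the log2 scale (SE 0.37), at an adjusted p of 0.0644 by edgeR.

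Of 14 receptor and kinase genes, 13 were tested and 0 passed by edgeR, with 2 at an unadjusted p under 0.05. The kinase gene Tyk2 had a log2 change of 0.41 (SE 0.16), at an adjusted p of 0.669 by edgeR. Of 11 tested sensing genes, 0 passed and 4 had an unadjusted p under 0.05, led by the kinase Ikbke at 1.17 (SE 0.39) and the adaptor Myd88 at 1.08 (SE 0.38). In the ventral striatum 0 of 73 pathway genes passed by edgeR, with 7 higher at an unadjusted p under 0.05, against 4.94% of all genes. Of 10 interferon genes in the table, 0 had enough counts to be tested. Ifng, encoding interferon gamma and singled out after its values were seen, had 14 counts in dorsal oxycodone replicate 5 and 0 in the other 9 dorsal libraries.

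Between regions without drug, 17 of 74 pathway genes passed by edgeR, a smaller share than the 45.8% over all genes tested. Those higher in dorsal saline libraries included Ptpn11, Tor3a, Uba7, Trim34a, Tmem173 and Ifi27, with log2 changes from 0.50 to 1.41. Those lower included Epsti1, Dtx3l, Mavs, Samd9l, Shisa5, Pias1, Ifnar2, Pnpt1, Ptpn2 and Tbk1, from -1.76 to -0.28.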

How the data were processed

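Per the labels' protocols, RNA was purified with a column kit and made into stranded libraries after removal of ribosomal RNA. The deposited table holds raw counts per Ensembl gene in 22 libraries, and the submitters' processing notes name CASAVA 1.8.2, STAR 2.3 and featureCounts, with the strand setting and the treatment of shared reads not given in the sources used here. Every value was whole. GENCODE M21 (GRCm38) gave symbols and exon lengths for 22282 of 23119 identifiers (96.4%).

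Counts were tested with edgeR 4.0.16 (R 4.3.3): TMM factors, filterByExpr, quasi-likelihood test with robust dispersions, two-sided, Benjamini-Hochberg over all genes tested, threshold 0.05. SE is the log2 change divided by the root of F. DESeq2 1.42.0 and limma-voom (limma 3.58.1) were alternatives, as were other scalings, filters, covariates, subsets of libraries and leaving out each library. The code was tested on simulated data. The lowest chi-square per degree of freedom between libraries of a group was 2.88, above sampling noise, so no library was treated as deposited again. This does not show that libraries sharing a title number are separate mice, and a fit with those summed was an alternative.

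The members and lists were chosen with earlier results of these data known. Named genes are the members called in the dorsal comparison, up to 3 of each role group and 3 ventral members with the lowest unadjusted p, and pathway genes called in a comparison plus 2 of each list with the lowest dorsal p. The other members are given by their log2 change or by counts. A result that this rule would name is not reported here. Floors (3 counts) cover counting error only.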

Additional observations from a re-analysis of the deposited data

Results flagged for a closer look

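Of 60 groups of values examined, 10 had a highest library that lay far from the rest of its group by Dixon's test. Chance flags about 1 group in 20 where groups are independent and values normally distributed. The values here were CPM without a log scale, for genes measured in the same libraries, so that rate may not hold for these groups. Ventral oxycodone replicate 4 was high for Stat3 at 82.2 CPM, Irgm1 at 52.8 CPM, Parp14 at 53.9 CPM and Socs3 at 5.78 CPM. The next oxycodone libraries stood at 73.8, 25.4, 26.4 and 2.51 CPM in that order of genes. Dorsal oxycodone replicate 5 was high for Usp18 at 7.17 CPM, with 4.24 CPM in the next library, and for Ifitm3 at 36.3 CPM, with 15.9 CPM in the next. Ventral saline replicate 6 was high for Ube2l6 at 11.5 CPM, Stat3 at 82.5 CPM, Ifitm2 at 26.6 CPM and Socs3 at 4.34 CPM, where the next saline libraries stood at 3.90, 65.5, 11.7 and 1.19 CPM.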

How the results depend on the processing

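In the dorsal striatum 4 members and 30 genes were called. DESeq2 called 8 members and 85 genes, and edgeR without robust dispersions 10 and 58. Limma-voom called 4 members, 2 of them shared with edgeR, and summing libraries that share a title number and treatment gave 5, 3 of them shared. In both fits the number of genes called was within a factor of 1.5 of the 30. A fit of all 22 libraries called 0 and 5, the haemoglobin covariate 0 and 2, libraries with title suffix P 0 and 1, and those without it 7 and 17. Leaving out each library gave 0 to 10 members and 1 to 63 genes. In the ventral striatum, where edgeR called 0 members and 0 genes, DESeq2 called 1 member and 38 genes, limma-voom 61 genes and the haemoglobin covariate 1 gene. Between regions in saline libraries 7 members were called, and 4 to 8 when each library was left out. The lowest count was without ventral saline replicate 5. The causes were not tested.

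Some members that were not called changed sign. In the dorsal striatum the haemoglobin covariate gave -0.22 for Usp18, -0.00028 for Isg15 and -0.83 for Socs1, libraries without suffix P gave -0.086 for Usp18 and -0.25 for Socs1, and limma-voom gave -0.063 for Socs1. Leaving out each library gave -0.36 to 0.94 for Socs1. In the ventral striatum Ube2l6 had -0.28 with the haemoglobin covariate. Lane 2 libraries gave -0.56 for Ube2l6, -0.051 for Stat3, 0.13 for Usp18, -0.12 for Ifitm2 and -0.17 for Socs3. Leaving out each library gave -0.22 to 0.70 for Ube2l6 and -0.32 to 0.040 for Usp18.

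The labels do not say whether a title number marks a mouse, and the samples were not treated as paired: 2 of 10 same-number pairs had a correlation over 0.1, and 1 of 10 dorsal libraries correlated best with its own number. The highest correlation, 0.365, was that of title number 7, dorsal oxycodone replicate 5 with ventral oxycodone replicate 4. With title number as a replicate block, 0 members were called for the difference of effects and 5 between regions in saline, where the same libraries without the block gave 0 and 7. Low counts limit Socs1, with 0 to 4 counts in ventral oxycodone and 1 to 3 in ventral saline libraries.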
